A study of Mus musculus with 8 samples.

Results

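The 7 genes described here were the nidogens Nid1 and Nid2, the laminin alpha chains Lama2 and Lama4, the beta chain Lamb1, the gamma chain Lamc1 and Hspg2, which encodes perlecan. They were 7 of 52661 genes in the deposited tables and were found by symbol. The set was chosen by the levels of Nid1, whose 4 osteopontin libraries lay below its 4 null libraries in counts scaled to library size, so the values between these groups are given as a description, without a test. All 7 passed the filter on low counts, Lama2 mainly through its null libraries.

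Basement membranes are thin sheets of extracellular matrix under epithelia and around blood vessels, muscle fibres and nerves. Laminins, cross-shaped trimers of an alpha, a beta and a gamma chain, form 1 network of the sheet and type IV collagen forms the other, and nidogens and the heparan sulfate proteoglycan perlecan link them. In the gut, epithelial cells, fibroblasts, pericytes, smooth muscle and endothelial cells make these proteins, while intraepithelial lymphocytes sit above the sheet and touch it through integrins.

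Transcript levels had been measured by RNA sequencing in CD45+ intraepithelial lymphocytes of C57BL/6 mice, sorted on the leukocyte protein CD45. The cells of both groups were held for 24 h in medium containing 10% serum, with recombinant osteopontin at 2 µg/ml in 1 group (4 libraries) and without it in the other (4 libraries, labelled null). Libraries of both groups were named 1, 2, A and B. The labels give no age, sex, animal or culture for any library, and every p-value here reflects only how these libraries vary, part of which could be technical. Libraries held 49108969 to 71399847 estimated reads, and 3 reads, the floor used here for counting error, corresponded to 0.0420 to 0.0611 CPM, the usual unit of counts scaled to library size. Markers of T cells and intraepithelial lymphocytes (8 genes, Ptprc, Cd3e, Cd8a and Itgae among them) were all present in every library and summed to 6845 to 7262 CPM with osteopontin and 6476 to 7116 CPM without.

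Promoter windows from RefSeq (GRCm38.p6, the 250 bases before the start that RefSeq gives) were matched for 4 of the 7 genes. Those of Nid1, Hspg2 and Lama2 are shown because these genes had different patterns over the libraries. GC boxes (GGGCGG, or CCGCCC on the other strand) are in capitals. The first lies at chr13:13437352-13437601 on the plus strand, the second at chr4:137468553-137468802 on the plus strand, and the third at chr10:27616943-27617192 on the minus strand, all written 5′ to 3′ along the gene.
Nid1: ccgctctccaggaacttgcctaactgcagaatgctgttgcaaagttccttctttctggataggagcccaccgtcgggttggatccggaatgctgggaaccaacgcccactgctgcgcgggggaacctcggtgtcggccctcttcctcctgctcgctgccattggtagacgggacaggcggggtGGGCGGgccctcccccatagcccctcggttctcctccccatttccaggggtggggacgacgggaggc
Hspg2: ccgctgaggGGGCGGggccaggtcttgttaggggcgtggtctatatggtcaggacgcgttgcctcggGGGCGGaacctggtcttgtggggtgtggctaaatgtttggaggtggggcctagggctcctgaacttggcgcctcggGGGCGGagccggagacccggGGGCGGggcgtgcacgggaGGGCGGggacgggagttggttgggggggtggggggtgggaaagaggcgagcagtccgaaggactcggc
Lama2: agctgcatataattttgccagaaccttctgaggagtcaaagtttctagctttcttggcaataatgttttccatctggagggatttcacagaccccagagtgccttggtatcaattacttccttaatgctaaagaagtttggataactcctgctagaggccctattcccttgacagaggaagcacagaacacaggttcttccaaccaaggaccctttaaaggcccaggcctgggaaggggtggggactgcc
The Hspg2 window held 5 GC box matches, that of Nid1 held 1 and that of Lama2 held 0, and 32.7% of 32851 windows of this length held at least 1. GC content was 70.0%, 64.4% and 47.2% in these windows, with a median of 52.4% over all windows. A CCAAT box (CCAAT or ATTGG) was found once in the Nid1 window and in 33.8% of all windows, and a TATA box (TATAAA or TTTATA) in none of these 3 and in 12.4% of all. The Lamb1 window held 2 GC boxes and 1 CCAAT box. The gene starts given below are those of GENCODE and differ from RefSeq: they fall inside the windows of Nid1, Hspg2 and Lamb1, and the Lama2 window lies within the GENCODE gene, downstream of its start.

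Lamc1 and Nid2 were present in every library at similar levels, whereas Nid1, Lamb1, Hspg2, Lama4 and Lama2 differed between libraries by 2.79 to 8.27 on the log2 scale from lowest to highest. That range was 0.74 for Lamc1 and 1.20 for Nid2, against a median of 1.09 over the 18631 genes that passed the filter. In TPM, the length-corrected share of transcripts as deposited and summed per gene, the median over the 8 libraries was 12.1 for Lamc1, 3.40 for Nid2, 2.29 for Hspg2, 1.25 for Lamb1, 1.12 for Nid1, 0.665 for Lama4 and 0.0392 for Lama2. Ranges of all neighbours in this order overlapped, from Lamc1 (8.70 to 18.5 TPM) and Nid2 (1.75 to 10.5 TPM) down to Lama4 (0.0102 to 1.38 TPM) and Lama2 (0 to 1.91 TPM).

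**Figure D1:**
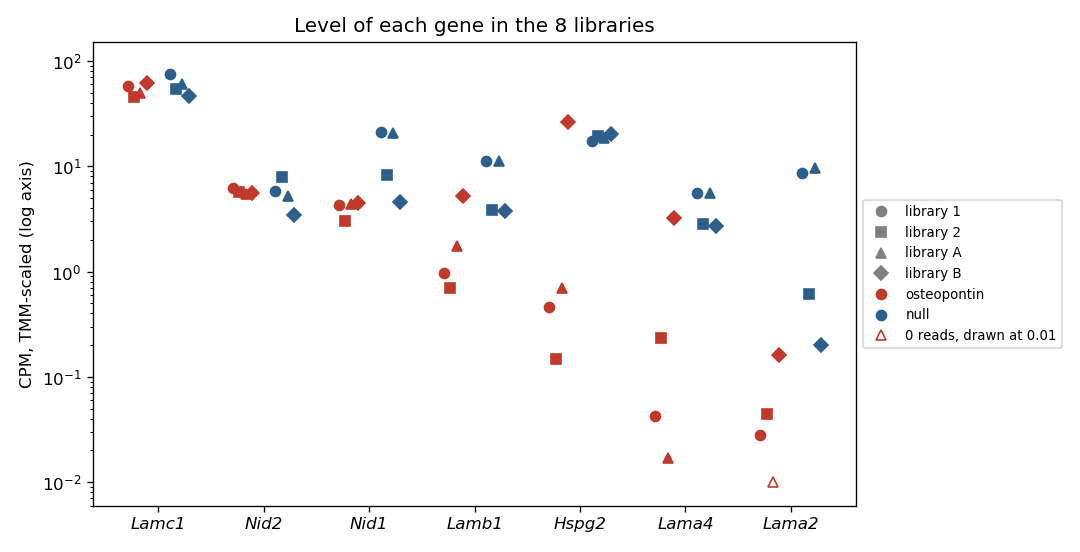
Level of each of the 7 genes in CPM (log axis) in the 4 osteopontin libraries (red) and 4 null libraries (blue), with 1 point per library and its shape giving the library name. Lamc1 and Nid2 lie in 1 narrow band each, while Hspg2, Lama4 and Lama2 spread widely, with osteopontin library A at 0 reads for Lama2.

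Nid1, on chromosome 13 (13437551 to 13512269, plus strand, GRCm38, as all gene positions here), encodes nidogen-1, which binds the laminin gamma-1 chain and type IV collagen. It stood at 4.31, 3.03, 4.33 and 4.51 CPM in osteopontin libraries 1, 2, A and B. In null libraries 1, 2, A and B it stood at 21.1, 8.21, 20.6 and 4.61 CPM. In CPM the groups did not overlap, but null library B lay only just above osteopontin library B, and null libraries 1 and A stood well above the other 6. They overlapped in unscaled reads, with 307 in osteopontin library 1 against 301 in null library B. They also overlapped in TPM, with 1.14 in osteopontin library B against 1.10 in null library B. The fitted log2 fold change, osteopontin over null, was -1.75 (SE 0.42, n = 4 each), and without null libraries 1 and A it was -0.67. In each library every Nid1 read was assigned to the 1 protein-coding transcript of the 3 annotated.

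Nid2, on chromosome 14 (19751265 to 19811787, plus strand), encodes nidogen-2, the other nidogen, with a similar role in the network. It stood at 6.24, 5.63, 5.43 and 5.60 CPM with osteopontin. Without osteopontin it stood at 5.76, 7.96, 5.17 and 3.45 CPM in null libraries 1, 2, A and B. All 4 osteopontin libraries lay between the lowest and the highest null library. The group means were 5.73 ± 0.355 and 5.59 ± 1.86 CPM (SD, n = 4 each), a log2 fold change of 0.04 (SE 0.31), and this rose to 0.49 when differences in transcript length between libraries were taken into account. Nid2 reads were spread over 4 transcripts, and the protein-coding ones took 57.1% to 96.1% of them. A short retained-intron transcript of 543 bases took 0% to 39.4% of the reads but up to 89.7% of the TPM, so the length-corrected level of Nid2 rests on how reads were divided. Its end overlaps the protein-coding gene Rtraf on the other strand by 437 bases, and Rtraf stood at 50.3 to 62.9 CPM. Whether strand was used in counting is not given in the sources used here, and a share of Rtraf reads in the Nid2 value was not tested.

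Lamc1, on chromosome 1 (153218922 to 153332786, minus strand), encodes laminin gamma-1, the gamma chain of most laminins. Its median level was the highest of the 7 by TPM. It stood at 58.2, 45.2, 49.9 and 61.8 CPM in osteopontin libraries 1, 2, A and B. The null libraries stood at 75.4, 53.7, 60.8 and 46.0 CPM in the same order. The groups overlapped widely, with means of 53.8 ± 7.58 and 59.0 ± 12.5 CPM (SD, n = 4 each) and a log2 fold change of -0.13 (SE 0.14). This value turned positive in 3 of the settings tried, at 0.22 with transcript lengths taken into account. The coefficient of variation between libraries that the model fitted was 0.162, at percentile 29.2 of all tested genes. Protein-coding transcripts took 94.3% to 100% of Lamc1 reads.

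Lamb1, on chromosome 12 (31265234 to 31329644, plus strand), encodes laminin beta-1, the partner of gamma-1 in several laminins. It stood at 0.968, 0.691, 1.73 and 5.24 CPM in osteopontin libraries 1, 2, A and B. In the null libraries it stood at 11.3, 3.88, 11.3 and 3.74 CPM. Osteopontin library B lay above null libraries 2 and B, so the groups overlapped, while the other osteopontin libraries were below every null library. The log2 fold change was -1.81 (SE 0.66), -2.97 without both libraries named B and -0.82 without null libraries 1 and A.

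The reads of Lamb1 also differed in kind between libraries. Its coding transcripts were assigned 8.06, 4.22 and 7.07 estimated reads in osteopontin libraries 1, 2 and A, and 183.0 in osteopontin library B. In null libraries 1, 2, A and B they were assigned 580.1, 177.8, 642.7 and 241.6 reads. On the scale of CPM of the plain library totals, the coding transcripts thus ranged from 0.0619 to 10.1. A non-coding retained-intron transcript of 2680 bases ranged from 0.601 to 2.37 CPM in 7 libraries, and 0 reads were assigned to it in null library B. It held 88.3%, 87.1% and 93.0% of the Lamb1 reads in osteopontin libraries 1, 2 and A, and 0% to 29.1% in the other 5. By TPM the corresponding shares were 94.5%, 65.8% and 96.6%, and 0% to 47.9%.

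The first exon of that transcript (chr12:31276656-31278650 in GENCODE M21) has 1806 bases of intron ahead of coding exon 5. The boundary is shown because reads on the intron side are what sets this transcript apart from the coding ones. It lies at chr12:31278402-31278521 on the plus strand (GRCm38), with the intron in capitals and the coding exon in lower case.
Lamb1 intron and exon: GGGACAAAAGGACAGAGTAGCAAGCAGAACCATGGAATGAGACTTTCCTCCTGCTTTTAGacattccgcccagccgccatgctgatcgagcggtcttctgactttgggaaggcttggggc
Salmon divides reads that fit several transcripts, so the reads of each transcript are estimates, and reads from unspliced RNA in this stretch cannot be told apart from this transcript.

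**Figure D2:**
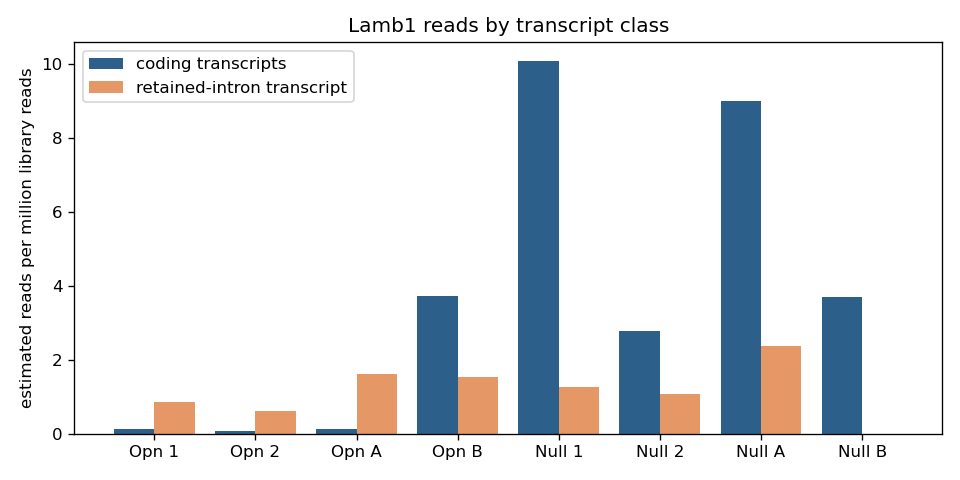
Estimated reads, as CPM of the library totals, assigned to the coding transcripts of Lamb1 (blue bars) and to its retained-intron transcript (orange bars) in each library. Coding reads run from 0.0619 CPM in osteopontin library 2 to 10.1 in null library 1, and retained-intron reads from 0 in null library B to 2.37 in null library A.

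Hspg2, on chromosome 4 (137468769 to 137570630, plus strand), encodes the core protein of perlecan, which binds growth factors as well as matrix. With osteopontin it stood at 0.463, 0.147, 0.702 and 26.2 CPM in libraries 1, 2, A and B. The null libraries stood close together at 17.2, 19.4, 18.4 and 20.5 CPM. Osteopontin library B was the highest of all 8, so the groups overlapped, and the other 3 osteopontin libraries held 33, 10 and 41 reads against 993 to 1336 in the null libraries. The log2 fold change of -1.46 (SE 1.57) was -5.44 without osteopontin library B. Its fitted coefficient of variation was 1.35, at percentile 88.9 of all tested genes. The 2 full-length coding transcripts took at least 97.1% of the reads in every library.

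Lama4, on chromosome 10 (38965515 to 39110188, plus strand), encodes laminin alpha-4, the alpha chain of vascular and muscle basement membranes. It stood at 0.0421, 0.235, 0.0171 and 3.25 CPM in osteopontin libraries 1, 2, A and B. In the null libraries it stood at 5.63, 2.84, 5.52 and 2.70 CPM. Osteopontin library B lay among the null libraries, and libraries 1 and A held 3 reads and 1 read, at or under the floor. Of the 16 reads in osteopontin library 2, 19.3% were assigned to the coding transcript, against at least 99.3% in osteopontin library B and in each null library. The log2 fold change of -2.24 (SE 1.42) was -5.37 without osteopontin library B.

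Lama2, also on chromosome 10 (26980036 to 27619758, minus strand), encodes laminin alpha-2, the alpha chain of muscle and nerve laminins, which fibroblasts also make. It stood at 0.0281, 0.0441, 0 and 0.162 CPM with osteopontin, from 2, 3, 0 and 8 reads. The 0 reads in osteopontin library A allow a level of up to 0.0516 CPM. In null libraries 1, 2, A and B it stood at 8.57, 0.612, 9.72 and 0.199 CPM, from 495, 39, 697 and 13 reads. In CPM the groups did not overlap, but null library B was 5 reads above osteopontin library B, and null libraries 1 and A held nearly all of the signal. In TPM the groups overlapped, with 0.0445 in osteopontin library B against 0.0339 in null library B. The log2 fold change of -6.36 (SE 1.58) was -2.77 without null libraries 1 and A.

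In CPM, Nid1 and Lama2 were the 2 of 7 genes whose groups did not overlap, both lower with osteopontin, where 1.58% of the 18631 tested genes lay lower and 1.89% higher without overlap. Because Nid1 was chosen for this, the count is a description. Lama2 had 2, 3, 0 and 8 reads with osteopontin and passed the filter on low counts mainly through its null libraries, so its lack of overlap is no support either. Without osteopontin library B, 5 of 7 lay lower without overlap (Hspg2, Lama2, Lama4, Lamb1 and Nid1), where 3.96% of 19815 genes did. With transcript lengths taken into account in the scaling, 1 of 7 (Nid1) did, while in the deposited TPM neither Nid1 nor Lama2 did. Between osteopontin and null libraries edgeR's quasi-likelihood test called 0% of the 18631 genes at an adjusted p under 0.05, and none of the 7. At an unadjusted p under 0.05 344 genes were fitted higher and 388 lower. DESeq2 called 80 genes (21 of them higher), and voom in limma called 0.

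Markers of cells that a CD45 sort should remove differed between the same libraries. Summed over 10 fibroblast markers, the level was 7.13 to 25.9 CPM with osteopontin and 6.91 to 334.9 CPM without, with 334.9 and 184.8 CPM in libraries 1 and A of the null group and 12.1 and 6.91 CPM in libraries 2 and B of the null group. All 10 were at 1 CPM or more in null libraries 1 and A, against 1 to 4 of 10 in the other libraries. Dcn, which encodes decorin, stood at 56.0 and 56.8 CPM in libraries 1 and A of the null group, at 3.44 and 0.398 CPM in libraries 2 and B of the null group, and at 0.154 to 1.10 CPM with osteopontin. Col14a1 had 0 reads in osteopontin library 2 and Lum 0 reads in osteopontin library A. Lama2 and Nid1 were highest in the 2 libraries with the highest fibroblast sums, and the part of fibroblast RNA in their values was not tested.

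Endothelial markers (10 genes) followed another order. They summed to 73.0 CPM in osteopontin library B, 68.1 CPM in null library 2 and 64.5 CPM in null library B, and to 2.81 to 7.81 CPM in the other 5. The range was thus 2.81 to 73.0 CPM with osteopontin and 7.43 to 68.1 CPM without, and 9 or 10 of 10 were at 1 CPM or more in the 3 high libraries against 0 to 4 in the others. Emcn and Cldn5 had 0 reads in osteopontin libraries 1 and 2, and Cldn5 also in null library 1. Cdh5, the cadherin of endothelial junctions, stood at 15.8, 16.4 and 14.7 CPM in the 3 high libraries and at 0.177 to 2.19 CPM in the rest. Pericyte and smooth muscle markers (8 genes) summed to 8.99, 12.1 and 7.92 CPM in those 3 libraries, and to 5.54 and 5.83 CPM in libraries 1 and A of the null group. In osteopontin libraries 1, 2 and A they summed to 1.85 to 2.30 CPM, with 0 of 8 at 1 CPM or more. The enterocyte sum was 102 and 85.9 CPM in osteopontin library B and null library B and 52.2 to 61.2 CPM in the other 6.

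Hspg2 and Lama4 were high in each library that had a high sum of either the fibroblast or the endothelial markers, and low in osteopontin libraries 1, 2 and A, where both sums were at most 7.96 CPM. Lamc1 and Nid2 stood at 45.2 to 58.2 and 5.43 to 6.24 CPM in those 3 libraries, against 46.0 to 75.4 and 3.45 to 7.96 CPM in the other 5. Stress and immediate-early genes (6 genes, Fos and Hspa1a among them) summed to 14.5 to 17.9 CPM in libraries 1, 2 and A of the osteopontin group, and to 114.3 to 149.4 CPM in the other 5. In bulk RNA, fewer cells of a type and less RNA per cell cannot be told apart, and the part of these markers in the values of the 7 genes was not tested.

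**Figure D3:**
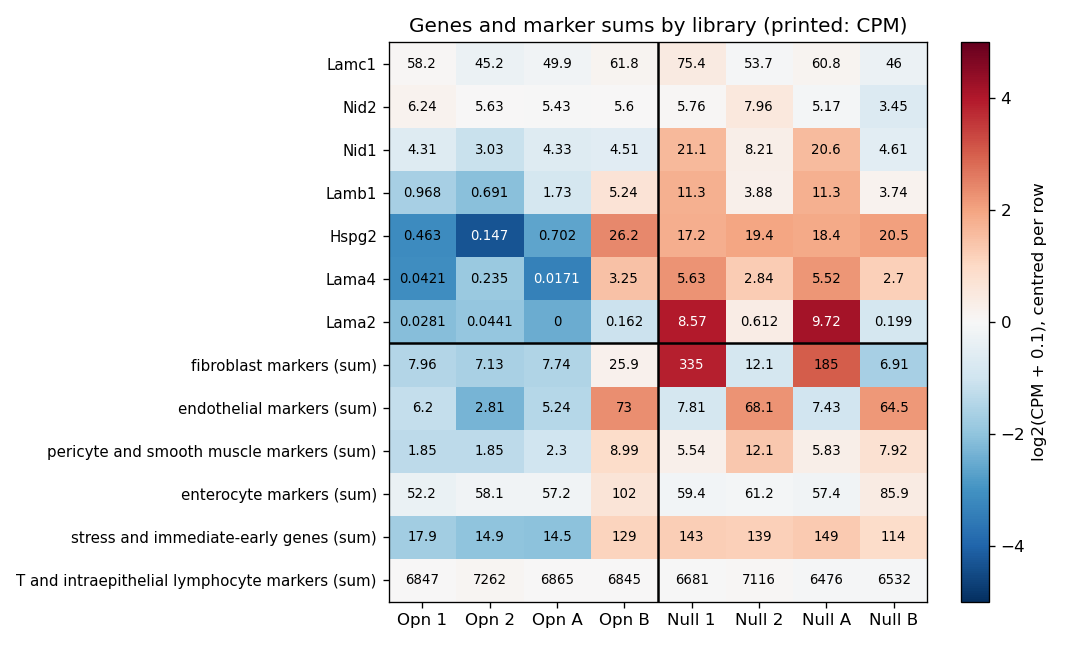
The 7 genes (above the line) and the summed CPM of 6 marker lists (below it) in each library, with colour giving log2(CPM + 0.1) centred per row and the printed figures giving CPM. Lama2 is highest where the fibroblast sum is highest (null libraries 1 and A), Hspg2 is low in osteopontin libraries 1, 2 and A, and Lamc1, Nid2 and the T cell sum change little.

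Over the 8 libraries, the pair of genes whose log2 CPM, centred on its mean, differed least was Nid2 and Lamc1 (mean absolute difference 0.28), followed by Nid1 and Lamb1 (0.59). Nid2 and Hspg2 differed most, at 2.69. The same measure was taken against 11637 other named genes that averaged 1 CPM or more. Nearest to Nid1 were Bmp1 (0.19), a protease that processes matrix proteins, the actin-severing Gsn (0.25), Cebpd (0.31) and Anxa1 (0.31). Among the nearest to Lama2 were Pi16 (0.36), Abca8a (0.44) and the matrix gene Tnxb (0.46). These 3 stood at 6.04 to 19.3 CPM in libraries 1 and A of the null group and at no more than 1.15 CPM in any other library.

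Nearest to Hspg2 were the chaperone gene Hspa1a (0.44), Igfbp7 (0.55), the matrix protease Adamts1 (0.56) and Tek (0.57), the endothelial angiopoietin receptor. Lama4 was nearest to Fkbp9 (0.44), Sparc (0.50), Lamb2 (0.51) and Fos (0.52), and Lamb1 to Ace (0.35), Pdgfrb (0.40), Scara5 (0.45) and Serpinh1 (0.45). Sparc encodes a collagen-binding protein of basement membranes, and Serpinh1 the collagen chaperone of the endoplasmic reticulum. For Nid2 the nearest were Cmpk1 (0.10), Rfk (0.10), Zfp414 (0.10) and Slc25a10 (0.11), and for Lamc1 Med19 (0.07), Pikfyve (0.07), Fam114a1 (0.09) and Fubp1 (0.09). The libraries share depth and preparation within these comparisons, and the distances are smaller for genes that vary little.

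A laminin needs 1 chain of each class, and the classes were not present in equal amounts. Lamc1 exceeded the summed alpha chains (Lama1 to Lama5) 125.7-fold, 40.2-fold and 155.5-fold by TPM in osteopontin libraries 1, 2 and A. The ratio was 6.45 in osteopontin library B and 3.54 to 5.46 in the null libraries. The alpha chains summed to 0.0966, 0.289 and 0.119 TPM in osteopontin libraries 1, 2 and A, to 1.92 TPM in osteopontin library B and to 1.73 to 3.39 TPM without osteopontin. No alpha chain gene had more than 50 reads in osteopontin libraries 1, 2 and A, so the ratios there rest on few reads. The Lama4 TPM in osteopontin libraries 2 and A came mostly or wholly from a retained-intron transcript. Relative to the summed beta-1 and beta-2 chains, Lamc1 was 16.5 to 19.8 times as high in osteopontin libraries 1, 2 and A and 2.18 to 3.72 times as high in the other 5. The Lamb1 part of that sum includes its retained-intron transcript, and Lamb3 was left out of it. Lamb3 stood at 24.2 to 59.5 TPM. With it the beta chains (Lamb1 to Lamb3) summed to 28.3 to 61.0 TPM, above Lamc1 in each library. In reads the order was reversed: Lamb3 had fewer than Lamc1 in each library, with 1836 against 4149 in osteopontin library 1. Its TPM thus depends on the lengths of the transcripts to which its reads were assigned, which were not examined. The Lamc1 values include short retained-intron and nonsense-mediated decay transcripts, which took few reads but a larger part of the TPM in some libraries. The full-length coding transcript of Lamc1 alone stood at 11.1, 8.40 and 8.96 TPM in osteopontin libraries 1, 2 and A, of 12.1, 11.6 and 18.5 TPM in all, so the ratios given for these libraries are lower when it is taken by itself.

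**Figure D4:**
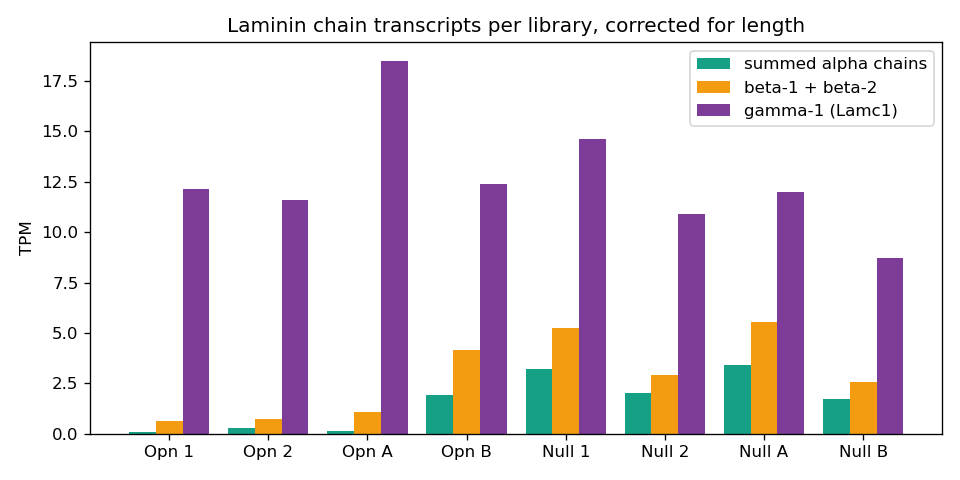
Transcript levels in TPM of the summed laminin alpha chains, of the beta-1 and beta-2 chains together and of gamma-1 (Lamc1) in each library. Gamma-1 is present throughout at 8.70 to 18.5 TPM, while the alpha chains lie at 0.0966 to 0.289 TPM in osteopontin libraries 1, 2 and A and at 1.73 to 3.39 TPM in the other 5.

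Other genes of the basement membrane were taken from 5 lists of 61 genes, of which 49 passed the filter. edgeR's test called 0 of the 49 at an adjusted p under 0.05, where it called 0% of all genes. At an unadjusted p under 0.05 there were 0 higher and 6 lower, where 344 of all 18631 tested genes were higher and 388 lower. The fitted level was lower with osteopontin for 38 and higher for 11, with a median log2 fold change of -0.48, against 49.9% lower and a median of 0.00 over all tested genes. Some of the lower genes passed the filter on low counts mainly through their null libraries. Among them were Lox (3, 1, 3 and 9 reads with osteopontin) and Ntn4 (0, 0, 9 and 7 reads). A gene that passes in this way is fitted lower, so these counts by direction are a description, without a test. For the 7 genes themselves 6 were fitted lower and 1 higher, with a median of -1.75. Without osteopontin library B, edgeR called 8 of the lists' genes lower (Col4a1, Col4a2, Fbln2, Lamb2, Pxdn, Serpinh1, Sparc and Timp3), where it called 0.187% of all genes. DESeq2, run without that filter, called 3 of the 61 lower (Lox, Mmp2 and Smoc2), where it called 0.392% of 20434 genes. Smoc2 was not among the 49.

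Among the other laminin chains, 4 of 7 were tested, and 3 had a lower and 1 a higher fitted level. Lamb3, a beta chain of epithelial laminins, had a mean of 26.5 ± 1.85 CPM in the osteopontin and 23.8 ± 2.66 CPM in the null group (SD, n = 4 each; log2 fold change 0.15, SE 0.13, adjusted p = 1.00 by edgeR). Lamb2, which pairs with gamma-1 in vessels, stood at 0.351, 0.691, 0.0685 and 5.46 CPM with osteopontin and at 4.49 to 6.72 CPM without. Its order of libraries was that of Lama4, low in osteopontin libraries 1, 2 and A. Lama3 reached 3.03 CPM in null library B and was at or below 0.609 CPM elsewhere.

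Of the 9 basement membrane collagens 7 were tested, 5 with a lower and 2 with a higher fitted level. Col4a1 and Col4a2 encode the main chains of type IV collagen. With osteopontin, Col4a1 was at 0.140, 0.353, 0.120 and 38.5 CPM in libraries 1, 2, A and B, and without it at 13.3 to 22.9 CPM. For Col4a2 the osteopontin libraries gave 0.112, 0.485, 0.137 and 22.7 CPM and the null libraries 5.34 to 14.2 CPM. The log2 fold changes were -0.94 (SE 1.83) and -0.81 (SE 1.71), with osteopontin library B above all null libraries for both. Col4a5 (-3.43, SE 1.33) and Col15a1 (-1.83, SE 0.89) had the smallest p of the list (adjusted p = 1.00 by edgeR). Col15a1 stood at 16.5 and 14.5 CPM in libraries 1 and A of the null group and at 0.884 to 4.91 CPM in the other 6.

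Among other components 11 of 16 were tested, 8 with a lower and 3 with a higher fitted level. Agrn, which encodes the proteoglycan agrin, was present throughout at means of 56.2 ± 5.87 CPM in the osteopontin and 59.2 ± 3.90 CPM in the null group (SD, n = 4 each; log2 fold change -0.07, SE 0.10). For Sparc the osteopontin libraries 1, 2, A and B gave 0.547, 0.485, 0.240 and 19.4 CPM and the null libraries 11.1 to 29.8 CPM. Ntn4 (log2 fold change -4.20, SE 1.42), a netrin that binds laminin, and Ntn1 (-2.26, SE 0.99) had the smallest p of this list and did not pass (adjusted p = 1.00 by edgeR). Ntn4 was at most 0.154 CPM with osteopontin, from 0, 0, 9 and 7 reads, and 0.330 to 2.02 CPM without. It was the 1 gene of the 49 whose groups did not overlap, where 1.58% of all tested genes lay lower without overlap. Like Lama2, Ntn4 passed the filter on low counts mainly through its null libraries, so its lack of overlap is no support.

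The receptors through which cells bind these proteins included Itga1, the most abundant gene of the 5 lists. Of 12, 11 were tested, 7 with a lower and 4 with a higher fitted level and a median of -0.11. Itga1, the alpha chain of a collagen-binding integrin typical of intraepithelial lymphocytes, had means of 767.7 ± 41.9 CPM in the osteopontin and 693.2 ± 64.1 CPM in the null group (SD, n = 4 each). Its log2 fold change was 0.15 (SE 0.07, 95% interval -0.0027 to 0.30, adjusted p = 1.00 by edgeR). Itgb1, its partner chain, stood at 76.0 ± 5.84 and 82.1 ± 9.42 CPM, and Itga2 had means of 44.2 and 37.8 CPM (log2 fold change 0.23, SE 0.13).

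Among matrix assembly and turnover enzymes 16 of 17 were tested, 15 with a lower and 1 with a higher fitted level. Colgalt1, which glycosylates collagen, stood at 139.6 to 167.9 CPM in the osteopontin group and 138.4 to 168.8 CPM in the null group. The protease inhibitor Timp2 had means of 27.3 ± 3.34 and 32.0 ± 5.14 CPM (SD, n = 4 each). Lox, a collagen cross-linking enzyme, and the gelatinase Mmp2 had the smallest p and did not pass (adjusted p = 1.00 by edgeR). The 4 null libraries 1, 2, A and B held 692, 34, 751 and 50 Mmp2 reads, and the 4 osteopontin libraries 2 to 29.

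**Figure D5:**
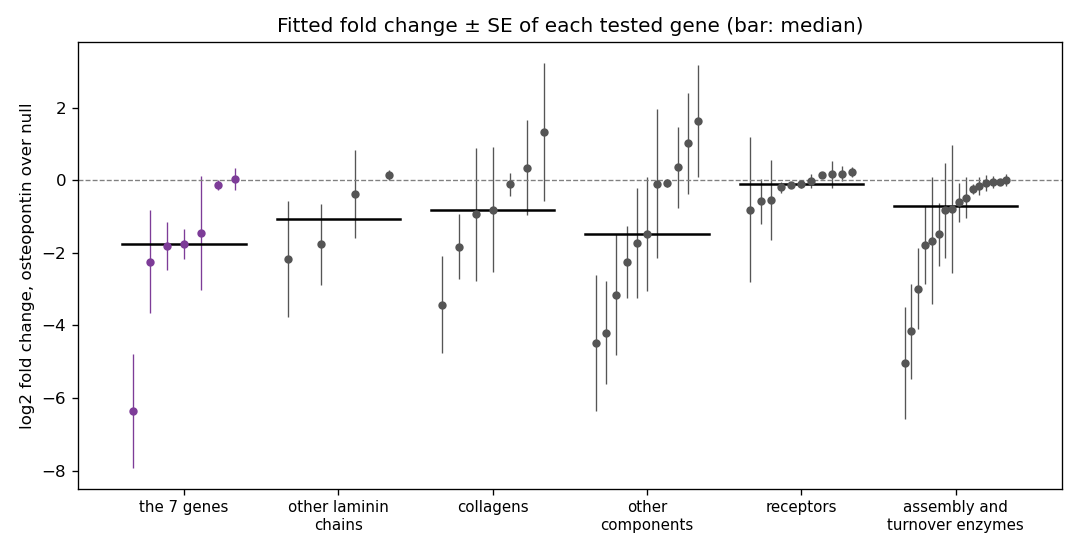
Log2 fold change, osteopontin over null, with its SE for each tested gene of the 7 and of 5 further lists, with the median of each list as a bar. The median is -0.11 for receptors, -1.75 for the 7 genes and -1.48 for other components, and each of these lists holds genes with wide error bars, such as the receptor Bcam (-0.81, SE 1.99).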

How the data were processed

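RNA sequencing libraries of CD45-sorted mouse intraepithelial lymphocytes, 4 with and 4 without osteopontin, were grouped by their titles. Per the submitters' processing notes Salmon was used. For its version, transcript release, genome build and strand setting, nothing is stated in the labels. Per library, the authors deposited estimated counts, TPM and effective lengths (bases) per transcript. Of 133618 transcripts, 131233 carry the same versioned identifier in GENCODE M21 (GRCm38), from which positions were taken.

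Estimated counts were summed per gene and rounded to whole numbers. Groups were compared with edgeR 4.0.16 (R 4.3.3): filterByExpr with a minimum count of 10, TMM scaling, robust quasi-likelihood F test, group as the only term, Benjamini-Hochberg adjustment over 18631 genes. SEs were taken as the size of the log2 fold change over the root of the F statistic. CPM are on TMM-scaled totals (for single transcripts, on plain totals). The model script was tested on simulated data. Alternatives included DESeq2 1.42.0 and limma 3.58.1 voom.

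The 7 genes and the lists were chosen with earlier results of these data known. From each list the text names the 2 tested genes with the smallest p and the 2 with the highest mean, and further genes named beside them were chosen after their values were seen. Likeness used log2 CPM with a prior count of 2, without predicted or clone-named genes. Some genes are not reported here. Floors cover counting error only.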

Additional observations from a re-analysis of the deposited data

Results flagged for a closer look

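In 42 groups of 4 libraries (each of the 7 genes and 14 summed lists, in both treatments), 11 had a highest or lowest library set apart from the other 3 by more than Dixon's 95% critical value, a limit that chance passes in about 1 in 20 groups. Most of these were osteopontin library B. It stood apart for Hspg2 (26.2 CPM) and Lama4 (3.25 CPM), and for the summed basement membrane collagens (74.2 CPM), fibroblast markers (25.9 CPM) and endothelial markers (73.0 CPM). The same library stood apart for pericyte and smooth muscle markers (8.99 CPM), enterocyte markers (101.9 CPM) and stress and immediate-early genes (129.2 CPM). Null library B stood apart for enterocyte markers (85.9 CPM). Osteopontin library 2 was the low one for Nid1 (3.03 CPM) and the high one for the T and intraepithelial lymphocyte markers (7262 CPM). These values come from the same few libraries and are not independent of each other.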

How the results depend on the processing

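Each of the 18 alternatives was compared with the fit over all 8 libraries. The count of genes called between osteopontin and null libraries, 0, became 4 with no filter on low counts, 80 with DESeq2 and 49 without both libraries named B, and ranged from 0 to 37 when 1 library was left out. The highest came without osteopontin library B, and 1 gene each was called when osteopontin library 2 or the null libraries 1 or 2 were left out in turn. The count of basement membrane list genes called, 0, became 3 with DESeq2 and 8 without both libraries named B, and ranged from 0 to 8 when 1 library was left out. Of the 7 genes, DESeq2 called Lama2 and Nid1, where it called 0.392% of all genes. Without osteopontin library B edgeR called Hspg2, Lama4 and Lamb1, where it called 0.187% of all genes. Without both libraries named B edgeR called these and Nid1, where it called 0.252% of all genes. Because the set was chosen on this contrast, these calls are a description. The sign of the fold change was negative in all 18 alternatives for Nid1, Lama2, Lama4, Lamb1 and Hspg2, but not for Lamc1 (-0.31 to 0.22) or Nid2 (-0.14 to 0.49). With limma voom the fold changes of Lama4 and Hspg2 were -4.63 and -4.46. The replicate block, which uses the shared names 1, 2, A and B, gave 0 called genes and fold changes of -4.62 for Lama4 and -4.38 for Hspg2. Deviations of same-named libraries from their group means correlated at 0.0437 to 0.123, below 0.1 for the names 1, 2 and A and above it only for B. In this measure 7 of 8 libraries correlated best with their own name. At this depth, levels of 3 reads or fewer cannot be told from 0. Those were Lama2 in osteopontin libraries 1, 2 and A and Lama4 in osteopontin libraries 1 and A. The cause of these changes was not tested.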

Other observations

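Markers of other CD45+ cells were also found in the sorted samples. Markers of B and plasma cells (7 genes, all at 1 CPM or more in every library) summed to 1190, 1406, 1565 and 666.1 CPM in osteopontin libraries 1, 2, A and B, and to 1255, 1404, 1737 and 1160 CPM in the null libraries. Markers of macrophages and dendritic cells (8 genes) summed to 76.4 to 162.4 CPM and 84.0 to 156.9 CPM, lowest in library B of each group. Itgax alone, at 66.6 to 124.1 CPM, made up most of this sum in each library. Csf1r and Adgre1 were at most 3.41 and 4.69 CPM, and C1qa had 0 reads outside osteopontin library 1 and null library 1. Enteric glia markers (5 genes) summed to 3.22 to 9.99 CPM over the 8 libraries, with 1 of 5 at 1 CPM or more in each. The groups overlapped for all 3 sums, and none of them was tested.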
